A study of Drosophila melanogaster with 6 samples.

Results

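The genes described here encode protein subunits of the mitochondrial ribosome. They were taken as every gene whose annotated symbol starts with mRpL or mRpS and a digit and that had a probe set annotated to that gene alone. Where a gene had several such probe sets, the brightest was used. There were 69 such genes among 11982 genes with a probe set of their own, 44 of them for the large subunit and 25 for the small subunit. The RefSeq gene table (Release 6 assembly) holds 73 symbols of this form. Of the other 4, mRpL53 and mRpS10 had only probe sets shared with another gene, and mRpL34 and mRpL37 were not analysed here.

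RNA was profiled on arrays in Drosophila melanogaster mesodermal cells sorted by green fluorescence from embryos aged at 29 °C to the late stage 11 to early stage 12 transition. In the overexpression genotype, twi-GAL4 UAS-2EGFP/UAS-jumu, the mesodermal twist driver switched on both GFP and the forkhead factor gene jumu in the same cells. The control genotype was twi-GAL4 UAS-2EGFP, with the same driver and reporter and no second transgene named. Each genotype had 3 arrays, and the labels number them without naming separate collections of embryos. The p-values thus cover only the variation among these 6 samples, part or all of which may be technical. The labels do not state how many copies of the driver and reporter each genotype had. The comparison asks which transcripts differed when Jumu was made in excess. The jumu probe set itself read 13.63, 13.35 and 13.69 log2 units in UAS-jumu arrays, against 11.35, 11.56 and 11.44 in controls.

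The mitochondrial ribosome translates the few messages of the mitochondrial genome, which encode core subunits of the respiratory chain and the ATP synthase. All of its proteins are encoded in the nucleus, made in the cytoplasm and imported. Its small subunit reads the message and its large subunit joins the amino acids. Part of its proteins have counterparts in the bacterial ribosome and part are found only in mitochondria. In Drosophila, loss of individual members slows growth and development, and the gene tko, for the small subunit protein at the decoding site, is known for its seizure-prone mutants.

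Most members were somewhat lower in UAS-jumu cells than in control cells after quantile normalization between arrays, a direction that turned with median centring and with both scalings to spiked-in control transcripts. The median log2 change was -0.28, the quartiles were -0.40 and -0.14, and 57 of 69 members (82.6%) had a negative change, where 51.2% of all genes and 49.9% of genes with a mean level in the same range as the members did. The UAS-jumu arrays lay wholly below the control arrays for 46 members (66.7%) and wholly above them for 3, while they overlapped for 20. Among all genes, the groups did not overlap in the lower direction for 17.5% and in the higher direction for 16.6%. Among the 2820 genes whose mean level lay between 9.50 and 12.15, as the members' did, these shares were 30.0% and 29.4%.

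Across members, the changes ran from -0.68 (mRpS35) to 0.79 (mRpL48) with an SD of 0.25 between genes, and 10 members were lower by more than 0.50. The SD of a single member between replicates had a median of 0.07 log2 units in UAS-jumu and 0.07 in control arrays (n = 3 each). All member probe sets were well lit, with the lowest mean at 9.50, so no member is reported as a bound. Mean level and log2 change had a Pearson correlation of -0.13 across the 69 members, which share the same 6 arrays.

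How many single members passed a test depended on how their spread was estimated. With limma and its default variance prior, 1 member fell and 1 rose (1.45% each). Over all genes 1.71% fell and 1.61% rose, and in the level range of the members 1.99% and 2.62% did, so these counts are near the background. At an unadjusted p under 0.05, 33 members were lower and 1 was higher. Of all 11982 genes, 1404 were lower and 1300 higher at that cut. Of the 2820 genes in the level range of the members, 500 and 495 were. Unadjusted counts given further below are to be read beside these. The default prior took 1 variance for dim and bright probe sets alike. When the prior was allowed to follow the signal, with limma's intensity trend, 41 of 69 members (59.4%) were called lower and 2 higher. With that trend, 10.9% of all genes were called lower and 10.3% higher, or 23.9% and 23.6% in the level range of the members. Of those 41 members, 29 were called lower in each of the 6 trend fits that left out 1 array. In the text below, "rose" and "fell" are kept for the default prior, and calls made with the trend are named as such.

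The direction of these changes is relative to the scaling. The median of the members was -0.28 after quantile normalization and -0.25 in the values as deposited, and it turned positive with median centring (0.02), with scaling to the hybridization controls (0.31) and with scaling to the poly-A controls (0.64). Those scalings moved the other genes too. The median over all genes was -0.01 with quantile normalization, -0.08 as deposited, 0.19 with median centring, 0.49 with hybridization controls and 0.82 with poly-A controls. Set against other genes of the same level range, the members' median was lower by nearly the same amount under each of the 5 scalings: the difference was -0.28 after quantile normalization and -0.29 under the other 4, which move all genes of an array together and so cannot change it. Under each of the 5 scalings, 58 of 69 members lay below the median of those genes, a count that likewise cannot vary among those 4. A difference in members relative to equally bright genes is therefore what these arrays show, and a change per cell was not measured. Median centring added 0.27 to every change in the deposited values, hybridization controls 0.57 and poly-A controls 0.89. Unless stated otherwise, directions below are those after quantile normalization, and negative ones can turn under these shifts. Of the 69 members, 56 were negative as deposited, 29 with median centring, 4 with hybridization controls and 0 with poly-A controls. In a bulk sample, fewer cells of a type and less RNA per cell cannot be told apart.

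**Figure D1:**
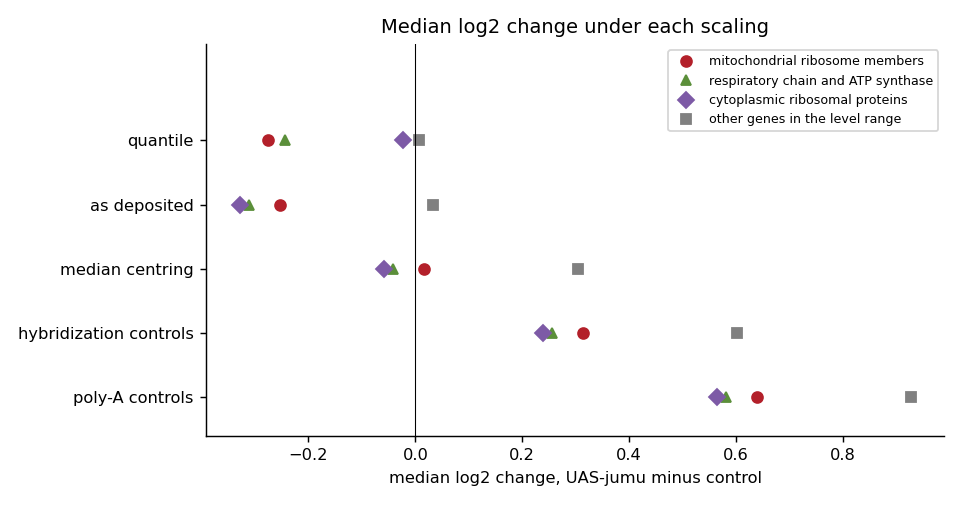
Median log2 change (UAS-jumu minus control, horizontal axis) of the 69 mitochondrial ribosome genes, of 71 respiratory chain and ATP synthase genes, of 41 cytoplasmic ribosomal protein genes and of the 2751 other genes in the members' level range, under 5 scalings (rows). The members lie below the other genes of their level range in each row (differences of -0.28 and -0.29), while their position against 0 turns with median centring and with both control scalings. By construction, only the quantile row could differ from the other rows in that difference.

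The large and the small subunit were displaced in the same direction, negative after quantile normalization and positive with median centring and both control scalings. Each gene was centred on its mean over the 6 arrays, and the median of the centred values was taken over the genes of a subunit in each array. For the 44 large subunit genes these medians were -0.09, -0.12 and -0.13 in UAS-jumu replicates 1, 2 and 3, and 0.14, 0.12 and 0.13 in control replicates 1, 2 and 3. For the 25 small subunit genes they were -0.10, -0.19 and -0.15 in UAS-jumu arrays, and 0.14, 0.15 and 0.16 in controls. In both subunits each UAS-jumu array lay below each control array, and no array stood apart from its genotype.

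**Figure D2:**
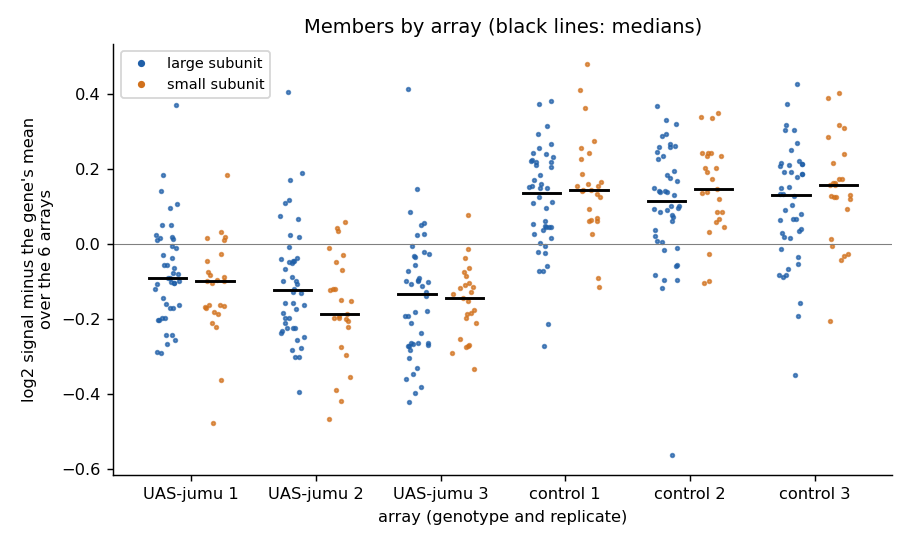
Log2 signal of each member minus its own mean over the 6 arrays (vertical axis), by array, with large subunit genes in blue, small subunit genes in orange and black lines for medians, after quantile normalization. The UAS-jumu medians lie between -0.09 and -0.19 and the control medians between 0.12 and 0.16. The isolated high blue point in the UAS-jumu arrays is mRpL48, which is also the lowest point in each control array. The side on which each genotype's medians lie turns with median centring and with scaling to control probe sets.

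Between the subunits the difference was slight. The median log2 change was -0.27 for large and -0.30 for small subunit genes, a gap of 0.03 that ran from 0.01 to 0.08 when 1 array was left out, where the gap between the subunits' array medians had an SD of 0.02 between replicates. Negative changes were found in 34 of 44 large and 23 of 25 small subunit genes. The share was 51.2% over all genes and 49.9% over genes in the level range of the members. With the intensity trend, 24 large subunit genes (54.5%) and 17 small subunit genes (68.0%) were called lower, and 2 and 0 were called higher. Over all genes the trend called 10.9% lower and 10.3% higher, and in the level range of the members 23.9% and 23.6%. Whether the shares of the large and small subunit differ was not tested. Counting mRpS30 and mRpS18A with the large subunit, where mammalian structures place their counterparts, left the medians at -0.27 and -0.30.

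Members with a bacterial counterpart and those found only in mitochondria, as assigned from mammalian mitochondrial ribosomes, had similar medians of -0.26 (44 genes) and -0.29 (25 genes). In the first class 27 were called lower and 1 higher with the trend, and in the second 14 and 1. In the level range of the members the trend called 23.9% of genes lower and 23.6% higher, and over all genes 10.9% and 10.3%. The first class was made to include mRpL55 (-0.49, called lower with the trend), whose place there is open to doubt. Both genes past the threshold with the default prior, mRpL51 and mRpL48, are of the class found only in mitochondria.

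The member with the largest difference went against the rest. mRpL48, which in mammals is part of the central protuberance at the top of the large subunit, had log2 signals of 10.45, 10.49 and 10.50 in UAS-jumu arrays, against 9.81, 9.52 and 9.73 in controls. All UAS-jumu arrays stood above all controls. It rose 1.73-fold, by 0.79 ± 0.12 (SE, adjusted p = 0.0454 with limma's default prior, 8.89e-07 with the trend). Over the 5 scalings its change ran from 0.79 to 1.71. Median centring and both control scalings add to every deposited change, so they could not turn a positive one. In the RefSeq table mRpL48 overlaps the gene frtz, whose probe set read 8.64, 8.89 and 9.13 in UAS-jumu arrays and 8.98, 8.89 and 8.89 in controls. The genotypes overlapped there, with a difference of -0.03 ± 0.15 log2 units (SE, adjusted p = 0.946). CG17660, which lies beside mRpL48, differed by 0.12 ± 0.12 (SE, adjusted p = 0.649).

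mRpL51, a large subunit protein with no bacterial counterpart, had log2 signals of 10.86, 10.85 and 10.82 in UAS-jumu arrays, against 11.44, 11.48 and 11.45 in controls. Its replicates differed by SDs of 0.02 and 0.02, and the genotypes lay far apart on that scale. It fell 1.53-fold, by -0.62 ± 0.09 (SE, adjusted p = 0.0421 with limma's default prior, 1.82e-07 with the trend), and its change was 0.31, positive, only with scaling to poly-A controls among the 5 scalings. PIG-U, which overlaps it in the RefSeq table, read 10.54, 10.39 and 10.38 in UAS-jumu arrays and 10.23, 10.09 and 10.28 in controls, so it lay on the other side. Both calls made with the default prior, for mRpL48 and mRpL51, were lost in each fit without 1 array (adjusted p 0.107 to 0.158 for mRpL48 and 0.119 to 0.151 for mRpL51), with median centring (0.151 and 0.482) and with scaling to hybridization controls (0.0757 and 0.972). Over all alternatives, limma's adjusted p ran from 2.11e-07 to 0.254 for mRpL48 and from 4.34e-08 to 0.972 for mRpL51.

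**Figure D3:**
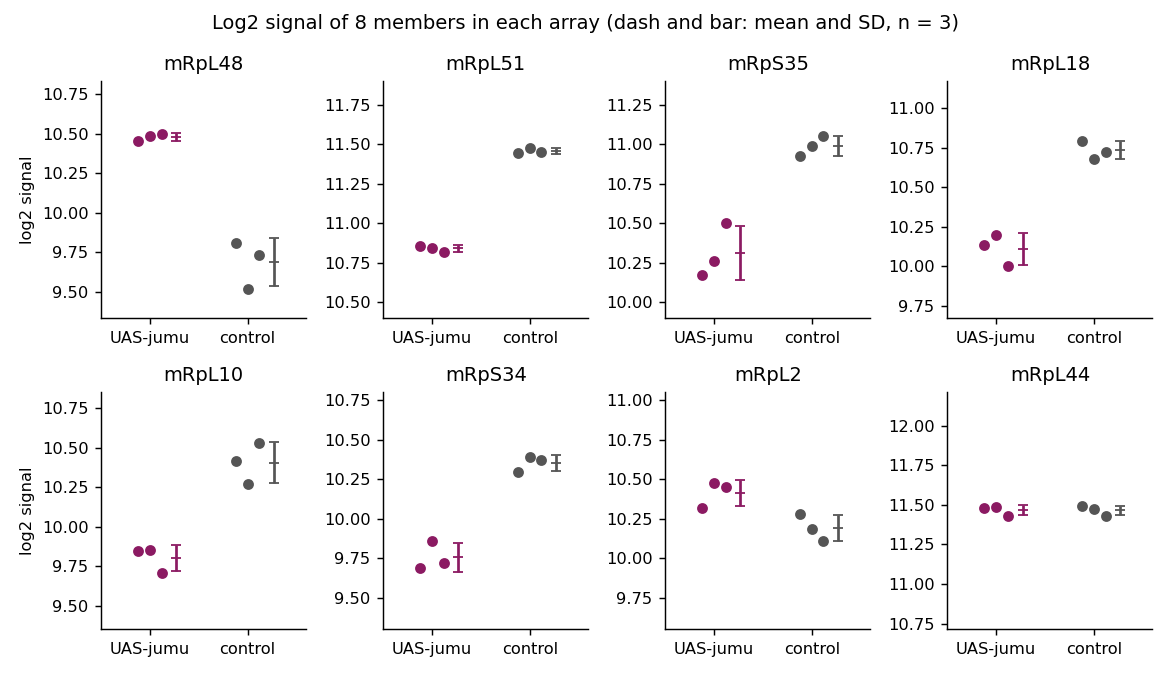
Log2 signal after quantile normalization in each of the 6 arrays for 8 members, UAS-jumu left and control right in each panel, with the mean and SD (n = 3). All panels span the same range of log2 units. mRpL48 and mRpL2 are higher in UAS-jumu arrays, mRpL51, mRpS35, mRpL18, mRpL10 and mRpS34 lower, and mRpL44 level. The direction of mRpS34 turns with scaling to hybridization controls, and those of all 5 lower genes turn with scaling to poly-A controls.

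Among the other members with large negative changes were genes for several working parts of the large subunit. mRpL18, whose bacterial counterpart binds the smallest ribosomal RNA, read 10.13, 10.20 and 9.999 in UAS-jumu arrays, against 10.79, 10.68 and 10.72 in controls. mRpL10, the base of the stalk that receives translation factors, read 9.85, 9.85 and 9.71 in UAS-jumu arrays, against 10.42, 10.27 and 10.53 in controls. Both were lower in each UAS-jumu array than in any control. Their log2 changes were -0.62 ± 0.10 (SE, adjusted p = 0.0578 with the default prior, 3.41e-06 with the trend) and -0.60 ± 0.12 (SE, adjusted p = 0.0774 and 2.08e-05). mRpL13 read 10.86, 10.73 and 10.65 in UAS-jumu arrays, against 11.26, 11.35 and 11.35 in controls, and mRpL20 read 10.37, 10.08 and 10.13 in UAS-jumu arrays, against 10.86, 10.57 and 10.85 in controls. The bacterial counterparts of these last proteins act early in assembly of the large subunit. Neither overlapped between genotypes, with changes of -0.57 ± 0.11 and -0.57 ± 0.14 (SE).

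In the small subunit the largest difference was that of mRpS35, a protein without a bacterial counterpart. It read 10.17, 10.26 and 10.51 in UAS-jumu arrays, against 10.93, 10.99 and 11.05 in controls, and UAS-jumu replicate 3 was the nearest to the controls. Its change was -0.68 ± 0.13 (SE, adjusted p = 0.0736 with the default prior, 4.32e-06 with the trend). mRpS34, whose human counterpart is mutated in a form of Leigh syndrome, read 9.69, 9.86 and 9.72 in UAS-jumu arrays, against 10.30, 10.39 and 10.37 in controls, a change of -0.59 ± 0.10 (SE, adjusted p = 0.0589 and 1.11e-05). mRpS16, whose bacterial counterpart helps to assemble the body of the subunit, read 11.02, 10.63 and 10.83 in UAS-jumu arrays, against 11.47, 11.45 and 11.22 in controls. Its genotypes did not overlap either, and its replicates spread more, with SDs of 0.19 and 0.14.

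A smaller set of members was not lower. mRpL2, a protein of the catalytic centre, read 10.32, 10.47 and 10.45 in UAS-jumu arrays, against 10.28, 10.18 and 10.11 in controls. Its groups lay close but did not overlap, and its change of 0.22 ± 0.11 (SE) was called with the trend (adjusted p = 0.0417) and not with the default prior (adjusted p = 0.341). The call with the trend was lost with its robust form (adjusted p = 0.0582), with the replicate block (0.0666) and in 4 of the 6 fits without 1 array (0.094 to 0.173), and over all alternatives limma's adjusted p ran from 0.00668 to 0.563. mRpL4, which lines the tunnel that the new chain passes through, read 10.79, 10.98 and 10.85 in UAS-jumu arrays, against 10.78, 10.74 and 10.64 in controls, and was called by neither (adjusted p = 0.512 and 0.142). mRpS14, of the small subunit head, overlapped between genotypes with a change of 0.16 ± 0.12 (SE). The changes of mRpL35, mRpL43, mRpS31 and mRpL1 were 0.09, 0.08, 0.04 and 0.03, with overlapping arrays.

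The 3 members nearest to no change were mRpL44, mRpL33 and mRpL22. mRpL44, whose human counterpart is mutated in an infantile heart disease, read 11.48, 11.49 and 11.43 in UAS-jumu arrays, against 11.49, 11.47 and 11.43 in controls. This is a change of 0.00 ± 0.09 (SE) with replicate SDs of 0.03 and 0.03. mRpL33 and mRpL22 differed by -0.01 ± 0.09 and 0.01 ± 0.12 (SE).

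**Figure D4:**
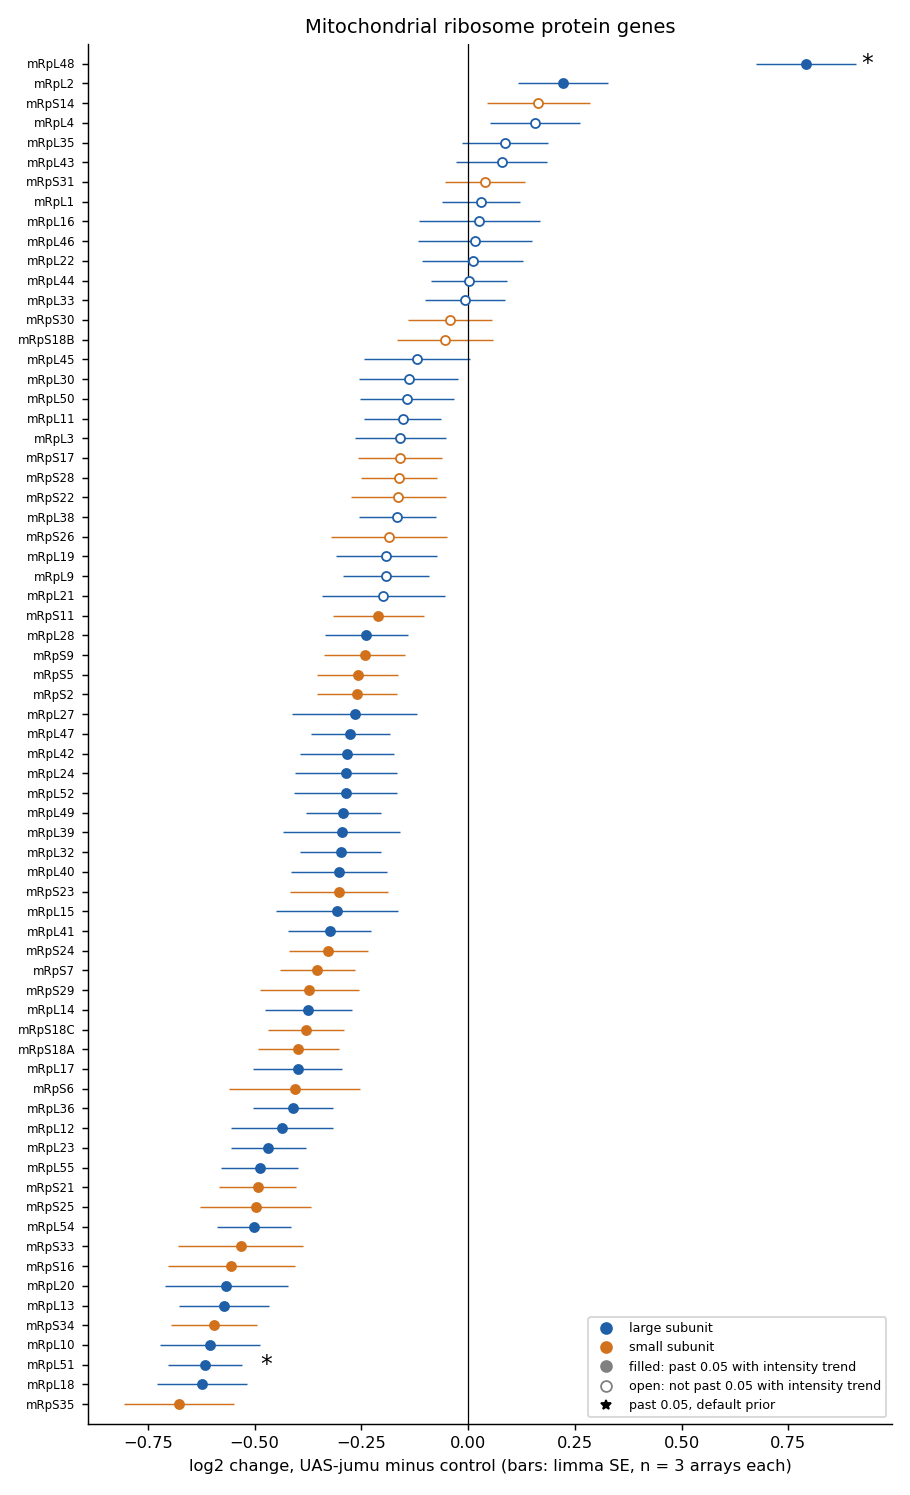
Log2 change (UAS-jumu minus control, horizontal axis) of all 69 members after quantile normalization, with limma standard errors (default prior, 3 arrays per genotype), ordered by size. Filled symbols mark the 41 members called lower and the 2 called higher with the intensity trend, and stars the 2 past the threshold with the default prior. The signs of most members turn with scaling to control probe sets or median centring.

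Some members are grouped here by place in the ribosome, as known from bacteria and mammals. These groups were drawn with the values known, need not hold every protein of a part, and are a description. Differences between the groups can come from that choice and were not tested. The 3 stalk proteins mRpL10, mRpL11 and mRpL12 had changes of -0.60, -0.15 and -0.44. Of the 6 proteins at the peptidyl transferase centre and along the exit tunnel, 2 had a negative change, and their median was 0.02: mRpL2 (0.22), mRpL4 (0.16), mRpL16 (0.03), mRpL22 (0.01), mRpL3 (-0.16) and mRpL27 (-0.27). At the tunnel exit, where the new chain meets the inner membrane, all 4 proteins were negative, with mRpL23 at -0.47, mRpL24 at -0.29, mRpL47 at -0.28 and the membrane anchor mRpL45 at -0.12. The central protuberance held both extremes of the large subunit, mRpL48 at 0.79 and mRpL18 at -0.62, beside mRpL40 (-0.30), mRpL38 (-0.17) and mRpL46 (0.02).

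In the small subunit, negative changes were found among the proteins chosen for head, body and platform. All 4 chosen for the platform, mRpS21 (-0.49), mRpS6 (-0.41), mRpS18C (-0.38) and mRpS11 (-0.21), were called lower with the trend. Of the 5 chosen for the head 4 were, among them mRpS29 (-0.37), the GTP-binding protein known in mammals as DAP3, and mRpS7 (-0.35), while mRpS14 was positive. Over all 25 small subunit genes 17 were called lower with the trend, beside 10.9% of all genes and 23.9% in the members' level range. Among small subunit genes in no group, mRpS31 (0.04), mRpS30 (-0.04), mRpS18B (-0.05), mRpS28 (-0.16), mRpS22 (-0.16) and mRpS26 (-0.18) were not called lower. In the body mRpS16 and mRpS5 (-0.26) were called with the trend and mRpS17 (-0.16) was not. Of the mRpS18 family, which has 3 genes, mRpS18A (-0.40) and mRpS18C were called lower with the trend, and mRpS18B was at -0.05 ± 0.11 (SE).

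Outside the members past the threshold, the 8 largest changes in each direction and the 3 changes nearest to 0, there were 50 members. Their changes ran from -0.53 to 0.03, and 48 were negative. Of these 50, 33 were called lower with the trend and 38 did not overlap between genotypes in the lower direction. Over all genes these shares were 10.9% and 17.5%, and in the level range of the members 23.9% and 30.0%. mRpL47 and mRpS11 each had a second, dimmer probe set, and these gave -0.10 and -0.24 where the brighter ones gave -0.28 and -0.21, so the sign was the same within each gene.

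Genes next to the members were spread around 0. In the RefSeq gene order, the nearest measured protein-coding genes of the 69 members were 69 other genes, none of them a member. Their median change was -0.03, and 36 of them (52.2%) were negative, near the 51.2% of all genes. With the trend, 12 of the 69 were called lower and 10 higher, where 10.9% and 10.3% of all genes were. The table shows an overlap with another gene for 41 of the 69 members, and the files do not say from which strand the probes read, so single values of overlapping genes carry that uncertainty.

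Proteins of the same ribosome that carry other symbols lay on the same side after quantile normalization, and 2 of 3 were called lower with the trend (0 with limma's default prior, 2 lower and 0 higher at an unadjusted p under 0.05). For these and the gene lists that follow, the trend called 10.9% of all genes lower and 10.3% higher. In the level range of the members it called 23.9% and 23.6%. tko, the decoding site protein named above, read 10.88 ± 0.04 in UAS-jumu arrays and 11.31 ± 0.11 in controls (SD, n = 3 each), a change of -0.43 ± 0.10 (SE, adjusted p = 0.110 with the default prior, 5.42e-05 with the trend). CRIF differed by -0.46 ± 0.10 (SE, adjusted p = 0.0866 and 2.37e-05) and bonsai by -0.17 ± 0.12 (SE, adjusted p = 0.533 and 0.128).

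Of the 8 genes measured for translation factors that work on this ribosome, 7 had a negative change. With limma's default prior 0 passed (4 lower and 0 higher at an unadjusted p under 0.05), while 5 were called lower and 0 higher with the trend, and their median change was -0.29. The elongation factor genes mEFTu2, mEFTs, mEFTu1 and mEFG1 had changes of -0.45, -0.40, -0.31 and -0.25, and mRRF1, for the factor that recycles the ribosome, had -0.86 ± 0.29 (SE, adjusted p = 0.207 and 0.0116). The initiation factor genes mIF2 and mIF3, nearer to background with control means of 7.89 and 6.26, had 0.15 and -0.15.

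The mitochondrial aminoacyl-tRNA synthetases, which charge the tRNAs used by this ribosome, had no common direction. Of 15 measured, 1 rose and 0 fell with the default prior, and the median was -0.05. The gene that rose was AspRS-m, at 10.28 ± 0.02 in UAS-jumu arrays and 9.56 ± 0.11 in controls (SD, n = 3 each), a change of 0.71 ± 0.10 (SE, adjusted p = 0.0432). PheRS-m had -0.56 ± 0.09 (SE, adjusted p = 0.0578 with the default prior, 4.12e-07 with the trend) and IleRS-m -0.59 ± 0.19 (SE, adjusted p = 0.186 and 0.0566).

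Genes for mitochondrial DNA and RNA synthesis had a median of 0.00 over 12 measured, with 0 past the threshold by limma's default prior (4 lower and 1 higher at an unadjusted p under 0.05), and 4 called lower and 1 higher with the trend. Those with the smallest p by the default prior were mTerf3, for a transcription termination family protein (-0.48 ± 0.11), mtTFB2, for a mitochondrial transcription factor (0.39 ± 0.10), and bsf, for an RNA-binding protein (-0.39 ± 0.10, SE each). For protein import and chaperones 8 of 12 were called lower with the trend and 0 higher, with 0 in either direction by limma's default prior (7 lower and 1 higher at an unadjusted p under 0.05), and the median was -0.29. The mitochondrial chaperonin gene Hsp60A had -0.84 ± 0.13 (SE, adjusted p = 0.0531 and 1.01e-07), and Tim9a -0.46 ± 0.09 (SE, adjusted p = 0.0866 and 4.01e-06) while Tim13, also among the 3 smallest p-values, had both group means under 6 and was called by neither (adjusted p = 0.0646 and 0.121).

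The respiratory chain and ATP synthase genes of the nucleus had nearly the same median as the members, -0.24 over 71 genes, with 60 negative, 0 called by limma's default prior (27 lower and 0 higher at an unadjusted p under 0.05), and 37 (52.1%) called lower and 0 higher with the trend. Cytoplasmic ribosomal protein genes were taken by symbol, which let in RpLP0-like (0.04). The 41 genes so taken had a median of -0.02 after quantile normalization, with 3 called lower (7.32%) and 0 higher with the trend. By limma's default prior 0 were called (2 lower and 0 higher at an unadjusted p under 0.05). This contrast depended on the scaling. Cytoplasmic ribosomal proteins were at the bright end of the arrays, with a median level of 15.2 log2 units, and in the values as deposited their median was -0.33, beside -0.25 for the members and -0.31 for the respiratory genes. With median centring the medians were -0.06, 0.02 and -0.04 in the same order. Both control scalings made all 3 medians positive. Of the mitochondrial lists above, the medians of the proteins under other symbols (-0.13), translation factors (-0.06) and import (-0.10) stayed negative with median centring and turned positive with both control scalings.

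**Figure D5:**
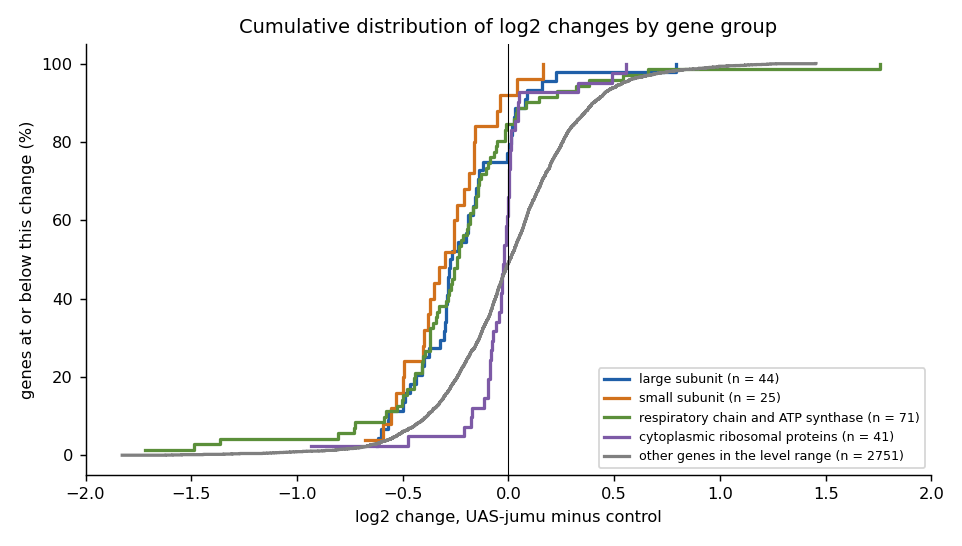
Share of genes at or below a given log2 change (UAS-jumu minus control) after quantile normalization, for the 44 large and 25 small subunit genes, 71 respiratory chain and ATP synthase genes, 41 cytoplasmic ribosomal protein genes and the 2751 other genes in the members' level range. The curves of both subunits and of the respiratory genes lie left of the others over most of their course, with medians of -0.27, -0.30 and -0.24 that turn positive with both control scalings. The curve of the cytoplasmic ribosomal proteins is narrow and centred at -0.02, which turned to -0.33 in the values as deposited.

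Markers of several cell types also differed between genotypes in the sorted samples. Of 9 measured mesoderm markers, 4 rose and 0 fell, with a median change of 0.69. Over all genes 1.61% rose and 1.71% fell. With the trend, 7 mesoderm markers were called higher and 1 lower, where 10.3% and 10.9% of all genes were. The marker called lower was sna (-0.49), and zfh1 was at -0.01. Of 18 nervous system markers, 8 fell and 0 rose, with 17 negative and a median of -0.63. The trend called 13 of them lower and 1, gcm (0.38), higher. Of 15 epidermis and trachea markers 3 fell and 0 rose, with 10 negative and a median of -0.62. The trend called 5 of these lower and 1, pnr (0.61), higher. The log2 of the summed signal of the mesoderm markers was 14.82 to 14.85 in UAS-jumu arrays and 14.36 to 14.41 in controls. That of the nervous system markers was 14.66 to 14.68 in UAS-jumu arrays and 15.31 to 15.35 in controls, and that of the epidermis and trachea markers 13.46 to 13.56 in UAS-jumu arrays and 13.77 to 13.82 in controls. The medians of the nervous system and of the epidermis and trachea markers stayed negative under each scaling except that to poly-A controls, which gave 0.26 for the nervous system and 0.22 for epidermis and trachea. The mesoderm median was positive under all 5. It was positive as deposited (0.60), so median centring and both control scalings, which add to every change, could not turn it. The neuronal gene elav read 12.47, 12.41 and 12.43 in UAS-jumu arrays and 13.31, 13.34 and 13.32 in controls, while 1 nervous system marker, brp, was dim, with means of 4.61 in UAS-jumu arrays and 5.15 in controls. Both group means were also under 6 for 4 epidermis and trachea, 2 blood cell, 2 germ line and 2 fat body markers, which limits the medians of these lists. Of 13 blood cell markers 2 fell and 0 rose with the default prior, while 6 were called higher and 3 lower with the trend (6 and 3 also at an unadjusted p under 0.05), and 4 had a negative change. The markers that fell were PPO1 and Pxn. Hml, named after its values were seen, read 7.93, 7.98 and 8.06 in UAS-jumu arrays, against dim values of 4.57, 0.64 and 4.19 in controls. The log2 of the summed signal of the blood cell markers was 14.71 to 14.72 in UAS-jumu arrays and 14.90 to 14.91 in controls, so the sum was lower where the median change was positive. Of 4 endoderm markers 1 fell, of 4 germ line markers 1 rose and of 5 fat body markers 0 passed with limma (0 lower and 2 higher at an unadjusted p under 0.05). The median changes were 0.51 for blood cell, -0.14 for endoderm, 0.86 for germ line and 0.47 for fat body markers, and that of endoderm turned positive with median centring (0.17). The mesoderm markers tin, Mef2, how, mbc and stumps were not measured by a probe set of their own. The part of cell composition in the changes of the mitochondrial ribosome genes was not tested.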

How the data were processed

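The deposited log2 values per probe set were made by the authors with the Bioconductor package affy, per the submitters' processing notes. Its version and settings, and a genome build, are not given in the sources used. A log base of 2 was inferred, since the values run from -1.73 to 16.4. Groups and replicate numbers came from the sample titles. Of 18952 probe sets, 183 Affymetrix controls were left out, and 18769 were quantile normalized between arrays and fitted by genotype in R 4.3.3 with limma 3.58.1 (lmFit and eBayes, two-sided p-values, no covariate), using Benjamini-Hochberg adjusted p-values over all of them and a threshold of 0.05. The prior had 0.94 degrees of freedom, and 519 probe sets passed (3096 with the intensity trend). The platform annotation gave 13647 probe sets 1 gene, 402 several and 4720 none; 13544 of the first matched RefSeq by gene identifier. The members, lists and alternatives were chosen with earlier results of these data known. Members named with values were those past the threshold, the 8 largest changes each way and the 3 nearest to none; of each pathway list, genes past the threshold and the 3 smallest p. Some others are named to show their role and were chosen after their values were seen. Alternatives were other scalings (18 hybridization and 27 poly-A control probe sets among them), filters on dim probe sets, the intensity trend, array weights, a replicate block, leaving out each array and averaging probe sets. The code was tested on simulated data. The number of arrays limits the precision. Motif searches in promoters were not run.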

Additional observations from a re-analysis of the deposited data

How the results depend on the processing

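With quantile normalization and the default prior, 1 member was higher and 1 lower. Leaving out any 1 of the 6 arrays gave 0 and 0, and the members' median then ran from -0.27 to -0.24, the large subunit median from -0.26 to -0.22, the small subunit median from -0.32 to -0.28 and the gap between them from 0.012 to 0.085. With median centring the counts were 0 higher and 0 lower, and with the trend after median centring 4 and 0. In both the medians turned to 0.017 (all members), 0.028 (large) and 0.0018 (small). As deposited, the medians were -0.25, -0.24 and -0.27. Scaling to hybridization controls gave 0 higher, 0 lower and medians of 0.31, 0.33 and 0.30. Scaling to poly-A controls gave 52 higher, 0 lower and medians of 0.64, 0.65 and 0.63. Under that scaling the median was 0.82 over all genes and 0.93 over other genes in the members' level range, both above the members' median. Leaving out probe sets under the median level gave 32 lower, and leaving out those under a mean level of 6 gave 36. The shares of all genes called with these filters and with the poly-A scaling are not given here, so these counts have no background. The trend gave 41 lower and 2 higher, and the robust trend 41 lower and 1 higher. Trend fits without 1 array gave 34 to 38 lower and 1 to 3 higher. Averaging probe sets gave a large subunit median of -0.25.

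No pairing by replicate number was seen: over all probe sets same-numbered arrays had correlations of -0.01, 0.00 and 0.01 in their deviations, and not every array correlated best with its own number. Over the 69 members these correlations were -0.01, 0.21 and -0.14. With 3 arrays per genotype, such values cannot exclude that same-numbered samples were collected together. With the replicate block, 0 members were higher and 0 lower, and with the block and the trend 41 were lower and 1 was higher. For lone genes, scaling to hybridization controls turned mRpS34 to 0.0027, mRpL13 to 0.027, mRpL20 to 0.031 and mRpS16 to 0.037. Scaling to poly-A controls turned mRpL51 to 0.31, mRpS35 to 0.24, mRpL18 to 0.30, mRpL10 to 0.32, mRpS34 to 0.33, mRpL13 to 0.35, mRpL20 to 0.36 and mRpS16 to 0.36. Members near 0 changed sign: mRpL33 to 0.29 (median centring), 0.020 (as deposited), 0.59 and 0.91 (control scalings), and without 1 array mRpL33 ran from -0.034 to 0.030, mRpL44 from -0.014 to 0.020, mRpL22 from -0.030 to 0.084 and mRpS31 from -0.00033 to 0.064. By construction, these scalings shift whole arrays and a fit without 1 array has fewer samples; no other cause was tested. Signal over background limited no member.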
